A study of Mus musculus with 18 samples.

Results

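The inhibitory checkpoint receptors are 8 genes (Ctla4, Pdcd1, Lag3, Tigit, Havcr2, Cd160, Btla and Cd96) of 19752 genes measured in regulatory T cells (Tregs), the Foxp3-expressing CD4+ T cells that hold other immune cells in check. They were chosen by symbol, and each has 1 probe set with no other gene assigned to it. RNA was hybridised to 18 Affymetrix Mouse Gene 1.0 ST arrays, in 6 groups of 3, all from mice of the diabetes-prone NOD strain. Perinate-tagged and adult-tagged cells are splenic GFP+YFP+ Tregs of female mice aged 60 days that carried Foxp3-eGFP-Cre-ERT2 and Rosa26-YFP. Tamoxifen was given as 4 injections, between days 0 and 10 of age to the perinate group and between days 35 and 45 to the adult group. The Cre is driven by Foxp3 and needs tamoxifen, so a YFP+ cell expressed Foxp3 during the treatment or descends from a cell that did. Both untagged groups are the GFP+YFP- Tregs of mice given the same treatments, so all 4 spleen groups share the alleles and the drug, and untagged cells may be of any origin that escaped recombination. The perinate thymus and adult thymus groups are Foxp3-GFP+ Tregs of male mice aged 4 days and 5 weeks. Tissue, sex, sorter and age cannot be told apart between spleen and thymus. Within the spleen, age at tamoxifen and time since tamoxifen cannot be told apart, since all its mice were aged 60 days. Whether each array is a mouse of its own or a pool is not in the labels, and the p-values rest on the spread between arrays, which may be technical.

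Checkpoint receptors dampen T cell signalling when they meet their ligands on other cells, either by recruiting phosphatases and adaptors or by taking the ligand away from an activating receptor. Ctla4 competes with Cd28 for Cd80 and Cd86 and is needed for Treg function. Tigit and Cd96 share the ligand Pvr with the activating receptor Cd226, while Btla and Cd160 bind Tnfrsf14, and several of these receptors mark Tregs that have been activated in tissues.

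The RefSeq start windows of Tigit, Havcr2 and Btla are shown because Tigit and Havcr2 were both higher in perinate-tagged spleen cells and lower in perinate thymus, while Btla was lower in both. Each is the 250 bases before an annotated start in GRCm38.p6, on the gene's own strand, and capitals mark matches to the motifs searched.
Tigit, chr16:43664185-43664434, minus strand: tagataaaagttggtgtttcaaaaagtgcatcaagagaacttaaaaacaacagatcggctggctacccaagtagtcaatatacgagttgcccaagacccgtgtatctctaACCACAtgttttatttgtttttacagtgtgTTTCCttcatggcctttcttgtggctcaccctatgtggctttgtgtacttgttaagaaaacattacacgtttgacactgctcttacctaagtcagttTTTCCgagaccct
Havcr2, chr11:46454681-46454930, plus strand: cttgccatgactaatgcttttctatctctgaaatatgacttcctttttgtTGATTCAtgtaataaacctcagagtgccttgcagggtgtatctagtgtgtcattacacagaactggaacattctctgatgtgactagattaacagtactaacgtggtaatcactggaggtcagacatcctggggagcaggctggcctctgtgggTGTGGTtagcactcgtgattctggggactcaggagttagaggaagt
Btla, chr16:45224087-45224336, plus strand: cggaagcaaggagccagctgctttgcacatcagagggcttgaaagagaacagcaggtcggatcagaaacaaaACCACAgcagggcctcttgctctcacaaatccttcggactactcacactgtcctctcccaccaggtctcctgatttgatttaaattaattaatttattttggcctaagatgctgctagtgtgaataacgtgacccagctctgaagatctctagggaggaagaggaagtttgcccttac
For Tigit and Btla the start used lies inside the annotated span of the gene (chr16:43626137-43665125 and chr16:45223705-45252895), so another start exists. Of the 8 receptors 7, all but Lag3, had a window, and Cd160 had a pair. The 6 motifs were searched on both strands, and matches of different motifs could overlap. The Runx core TGTGGT, or its complement, was found in 6 of the 8 receptor windows, against 14.0% of 32851 windows of all genes. These were the windows of Btla, Cd96, Havcr2 and Tigit and both windows of Cd160. Its first base is at -140 in Tigit, -46 in Havcr2 and -178 in Btla, counted from the annotated start used for each window. The NFAT core GGAAA occurs in 5 of the 8 receptor windows, those of Cd96, Ctla4, Pdcd1 and Tigit and 1 of Cd160, and in 55.6% of all windows. The AP-1 motif TGANTCA was found in Havcr2 alone (6.75% of all windows), the Prdm1 motif GAAAGT in Cd96 alone (12.3%), the T-box motif TCACACC in Cd160 alone (3.33%), and the forkhead motif GTAAACA in none of the 7 with a window (3.17%). These matches describe the letters of the windows and are not binding sites.

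The mean log2 level of 7 Treg and T cell markers (Cd3d, Cd3e, Cd3g, Cd4, Foxp3, Il2ra and Ikzf2) lay between 11.81 and 12.15 on all 18 arrays, although single markers differed: Il2ra was lower in perinate-tagged than in adult-tagged cells (-0.39 ± 0.12, adjusted p = 0.0416, limma), Foxp3 differed by -0.31 ± 0.12 (adjusted p = 0.0877), and Cd3g was lower in perinate than in adult thymus (-0.42 ± 0.12). Transcripts absent by sex, such as Eif2s3y on female arrays and Xist on male ones, read between 3.95 and 6.30, which is used here as the range of background. The NK markers Klra8, Klrb1c, Klrd1 and Ncr1, the B cell markers Cd79a and Ms4a1 and the myeloid markers Adgre1 and Cd14 were inside that range in all 6 groups. Other markers of these lists were not: Eomes (NK), Cd79b (B cell, group means 8.74 to 9.55) and Cd68 (myeloid, 7.42 to 7.96) were above it in every group. The CD8 marker Cd8a averaged 9.75 in perinate thymus and 10.36 in adult thymus. The library labelled perinate-tagged replicate 2 goes against its label as female: Eif2s3y read 9.79 on it, while 11 spleen arrays lay at 3.95 to 4.90, and its Xist level was 8.38, while theirs were 11.86 to 12.41. Results of the receptors, and of the genes that act with them, are also given without it for the tagged comparison and the spleen minus thymus difference. The untagged arrays numbered 3, 1 in each untagged group, stand apart from the other untagged arrays in several of the receptors and are described after the tagged comparison.

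Ctla4 and Pdcd1, the receptors that bind the B7 family, varied by 1.65 and 1.67 on the log2 scale over the 18 arrays. Log2 levels of Ctla4 were 10.64, 11.04 and 11.00 in perinate-tagged cells and 10.29, 10.39 and 10.41 in adult-tagged cells. The untagged cells read 10.46, 11.81 and 11.86 after perinatal tamoxifen and 10.44, 11.63 and 11.94 after adult tamoxifen, and the thymic cells 11.00, 10.96 and 10.97 (perinate) and 11.09, 10.53 and 11.02 (adult). The lowest group mean of Ctla4 was that of adult-tagged cells, below every array of the adult thymus, the next group in order, and the other neighbouring groups overlapped.

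Pdcd1 encodes PD-1, the receptor for Cd274 and Pdcd1lg2. Its log2 levels were 10.09, 10.42 and 10.34 in perinate-tagged cells and 9.18, 9.32 and 9.25 in adult-tagged cells. The untagged cells read 9.60, 10.85 and 10.75 after perinatal tamoxifen and 9.41, 10.26 and 10.78 after adult tamoxifen, against 9.95, 10.00 and 9.97 in the perinate thymus and 10.32, 9.70 and 10.19 in the adult thymus. All 3 adult-tagged arrays were below all 15 others, and every other pair of neighbours in the order of group means overlapped.

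Tigit, which binds Pvr and nectins, varied most of the 8 receptors, by 3.30 over the arrays. Its log2 levels were 11.68, 11.20 and 11.28 in perinate-tagged cells and 8.76, 9.20 and 9.03 in adult-tagged cells. In untagged cells they were 9.41, 11.76 and 11.70 after perinatal tamoxifen and 9.84, 12.05 and 11.76 after adult tamoxifen. In the thymus they were 8.99, 8.99 and 9.16 in perinates and 11.17, 11.05 and 11.20 in adults. The levels thus formed a low set, made of adult-tagged cells, perinate thymus and the untagged arrays numbered 3, and a high set of the remaining 10 arrays.

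Cd96, the second receptor for Pvr, was the least variable of the 8, with a range of 0.66 over the arrays. Its log2 levels were 11.56, 11.59 and 11.53 in perinate-tagged cells and 11.85, 12.18 and 12.02 in adult-tagged cells. Perinate thymus cells read 11.61, 11.68 and 11.64, against 12.05, 11.85 and 12.06 in adult thymus cells, and untagged cells lay between 11.52 and 12.04 after perinatal tamoxifen and between 11.69 and 11.96 after adult tamoxifen. The perinate groups of both sorted kinds were below every array of their adult counterparts.

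Havcr2 encodes TIM-3, a receptor for Lgals9 that is carried by activated effector T cells and by a part of activated Tregs. Its log2 levels were 7.83, 7.21 and 7.33 in perinate-tagged cells and 6.06, 5.78 and 5.94 in adult-tagged cells. Untagged cells read 6.25, 7.62 and 7.35 after perinatal tamoxifen and 6.32, 7.93 and 7.89 after adult tamoxifen, against 6.15, 5.87 and 5.88 in perinate thymus and 8.21, 7.28 and 7.84 in adult thymus. The means of adult-tagged cells (5.93 ± 0.14) and of perinate thymus cells (5.97 ± 0.16; SD, n = 3 each) were inside the background range, so folds against them are lower bounds and fitted Havcr2 differences that involve them are those of the measured values. As for Tigit, the low arrays were those of adult-tagged cells, of the perinate thymus and the untagged arrays numbered 3.

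Lag3, a relative of Cd4 that binds MHC class II, had log2 levels of 7.52, 7.73 and 7.94 in perinate-tagged cells and 6.86, 7.03 and 7.11 in adult-tagged cells. Untagged cells lay between 7.44 and 7.96 after perinatal tamoxifen and between 7.49 and 7.97 after adult tamoxifen. Perinate thymus cells read 7.14, 7.10 and 7.22, against 7.60, 7.17 and 7.39 in adult thymus cells. Adult-tagged cells had the lowest mean, but their arrays overlapped those of the perinate thymus.

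Btla and Cd160 share the ligand Tnfrsf14. Log2 levels of Btla were 9.58, 9.22 and 9.31 in perinate-tagged cells, against 9.84, 10.02 and 9.65 in adult-tagged cells. They were 8.68, 8.54 and 8.68 in perinate thymus against 9.33, 9.01 and 9.40 in adult thymus. Untagged cells lay between 9.50 and 9.80 after either treatment, and perinate thymus was below every other array. Cd160, a GPI-anchored receptor best known on NK and CD8 T cells, read 7.78, 7.47 and 7.90 in perinate-tagged cells, against 7.25, 7.36 and 7.29 in adult-tagged cells. It read 7.73, 7.92 and 8.22 in perinate thymus against 7.13, 6.82 and 6.99 in adult thymus. Untagged cells lay between 6.98 and 7.44 after perinatal tamoxifen and between 6.82 and 7.33 after adult tamoxifen, so both perinate groups were above every other array.

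**Figure D1:**
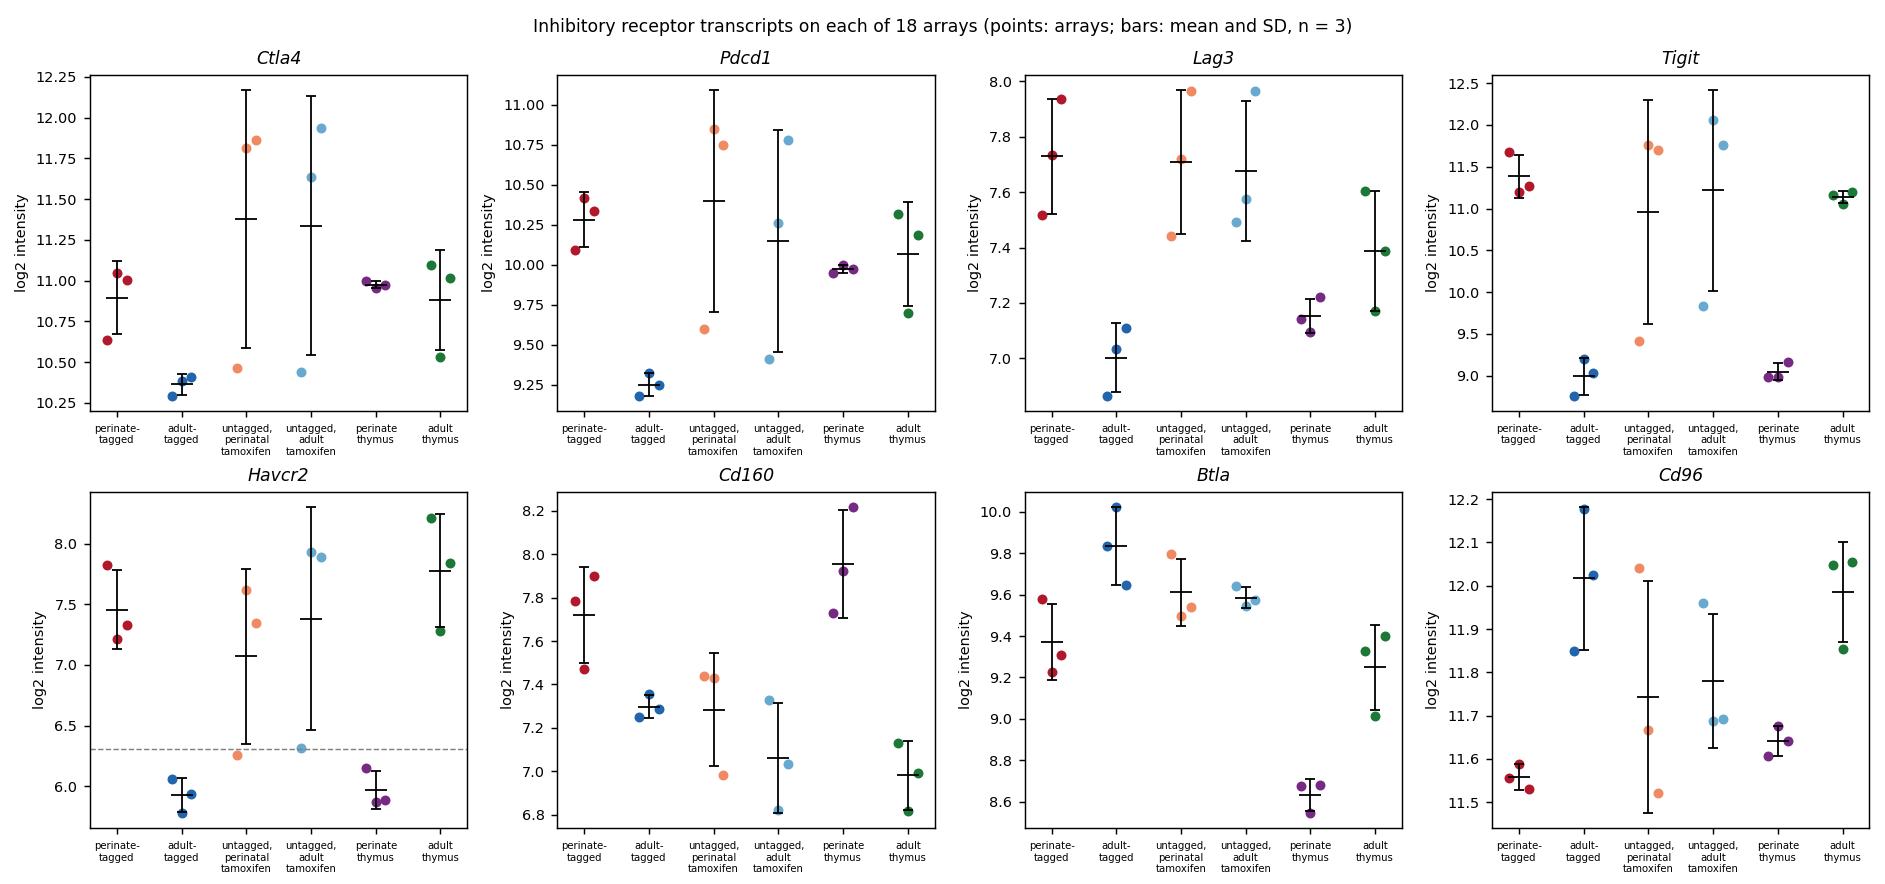
Log2 intensity (vertical axes, 1 panel per receptor, each with its own range) on each array (points), with the mean and SD of each group (bars, n = 3), for the perinate-tagged, adult-tagged, both untagged and both thymus groups. Tigit and Havcr2 are low in adult-tagged and perinate thymus cells and on 1 array of each untagged group, and the dashed line in the Havcr2 panel is the upper end of the background range, 6.30.

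The comparison of perinate-tagged with adult-tagged cells asks whether Tregs marked around birth and still present in the adult spleen differ from Tregs marked in adulthood. The former were also marked a longer time before they were taken. Tigit, Havcr2, Pdcd1 and Lag3 were higher in perinate-tagged cells and Btla and Cd96 were lower, at an adjusted p of 0.05 or less (limma's moderated test, Benjamini-Hochberg over the 10350 genes of the spleen fit). That is 4 of 8 receptors higher, where 16% of all genes tested were, and 2 lower, where 3.5% were, 19.5% in either direction. The groups did not overlap in 8 of 8 receptors, and in 45.8% of all genes. The median difference was 0.63 for the receptors and 0.12 for all genes. Quantile normalization moved the median of all genes to -0.04 and their calls from 1658 higher and 362 lower to 1064 and 894. It left 3 receptors higher and 2 lower (Pdcd1 lost its call, adjusted p = 0.0929), and centring each array on its median left 4 higher and 0 lower (Btla -0.38, adjusted p = 0.0837, and Cd96 -0.37, adjusted p = 0.107). In bulk RNA, fewer cells of a type and less RNA per cell cannot be told apart.

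Tigit was higher in perinate-tagged cells by 2.39 ± 0.56 (log2 difference ± SE, adjusted p = 0.009), a 5.24-fold difference. The mean of Havcr2 was at least 2.22-fold higher, since adult-tagged cells read inside the background range, and its fitted difference was 1.53 ± 0.38 (adjusted p = 0.0124, 95% interval 0.72 to 2.34). Pdcd1 was 2.04-fold higher (1.03 ± 0.32, adjusted p = 0.0342) and Lag3 1.66-fold higher (0.73 ± 0.17, adjusted p = 0.00752). The receptors with lower levels differed less: Btla by -0.46 ± 0.14 (adjusted p = 0.0295) and Cd96 by -0.46 ± 0.15 (adjusted p = 0.0396). Ctla4, with 0.53 ± 0.36 (adjusted p = 0.306, 95% interval -0.23 to 1.30), and Cd160, with 0.42 ± 0.16 (adjusted p = 0.082), did not pass, although their groups did not overlap. The spleen fit shares the spread of the untagged arrays, and both passed when only the 6 tagged arrays were fitted (Ctla4 adjusted p = 0.00728, Cd160 0.0227) and with array weights (0.00859 and 0.0156), so that 8 of 8 receptors were called there, where 33.2% and 57% of genes were.

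Tigit, Havcr2 and Lag3 kept their calls when any 1 of the 6 tagged arrays was left out. Without perinate-tagged replicate 2, the array that goes against its label, Tigit differed by 2.24, Havcr2 by 1.35, Lag3 by 0.83, Pdcd1 by 1.13 (adjusted p = 0.0446) and Btla by -0.57, all still called, while Cd96 was not (-0.46, adjusted p = 0.0718). Pdcd1 lost its call without any 1 of the other 5 tagged arrays (adjusted p 0.0603 to 0.115), and Cd96 without any 1 of the 6 (0.0536 to 0.125). Btla lost it without perinate-tagged replicate 4 or 5 or adult-tagged replicate 1 or 2 (0.0909 to 0.126). The numbers in the labels differ between the groups, 2, 4 and 5 for perinate-tagged and 1, 2 and 3 for adult-tagged arrays, so the tagged groups share only number 2, while the untagged arrays carry the numbers 3, 4 and 5. At number 2, Tigit read 11.68 in perinate-tagged cells against 9.20 in adult-tagged cells, Havcr2 read 7.83 in perinate-tagged cells against 5.78 in adult-tagged cells, and the differences of the other 6 receptors had the same signs as in the fit. With the number as a term over the spleen arrays 0 receptors passed (Tigit 1.32, adjusted p = 0.0511, and Ctla4 -0.22), and 0 passed with a covariate for the interquartile range, the width of each array's values (Tigit 2.04, adjusted p = 0.238). Of all genes 6.33% passed with the number as a term and 3.63% with the covariate. The interquartile range was 2.94 to 3.12 on perinate-tagged and 2.49 to 2.88 on adult-tagged arrays.

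The mean level of 4 cell division genes (Mki67, Top2a, Bub1 and Cdk1) was 9.80 to 9.81 in perinate-tagged cells, against 6.90 to 7.63 in adult-tagged cells, and all 4 were called higher. Its part in the receptor differences was not tested. Of 5 measured B cell markers, of concern for Btla, the mean was 6.60 to 6.76 in perinate-tagged cells and 6.60 to 6.65 in adult-tagged cells, with Cd79a and Ms4a1 in the background range. Of the 2 B cell markers tested, Cd79b, a chain of the B cell receptor, was called higher (0.66 ± 0.14, adjusted p = 0.00476). It read 9.39 to 9.67 in perinate-tagged cells against 8.75 to 9.05 in adult-tagged cells, while Btla was lower. Ighm, the other marker tested, was not called. Without perinate-tagged replicate 2 Ighm read lower, as Btla did (-0.49 ± 0.22, adjusted p = 0.127, limma). The part of B cells in the Btla difference was not tested. Of 8 myeloid and dendritic markers, of concern for Havcr2, the mean was 6.32 to 6.57 in perinate-tagged cells and 6.19 to 6.33 in adult-tagged cells. In perinate-tagged cells 4 of these were in the background range (Adgre1, Cd14, Itgax and Lyz2), and in adult-tagged cells 6, while Fcer1g and Cd68 were both called higher in perinate-tagged cells. The part of such cells in the Havcr2 difference was not tested. For Cd160, the NK list mean was 5.07 to 5.17 in perinate-tagged cells and 5.13 to 5.23 in adult-tagged cells, with Klra8, Klrb1c, Klrd1 and Ncr1 in the background range.

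**Figure D2:**
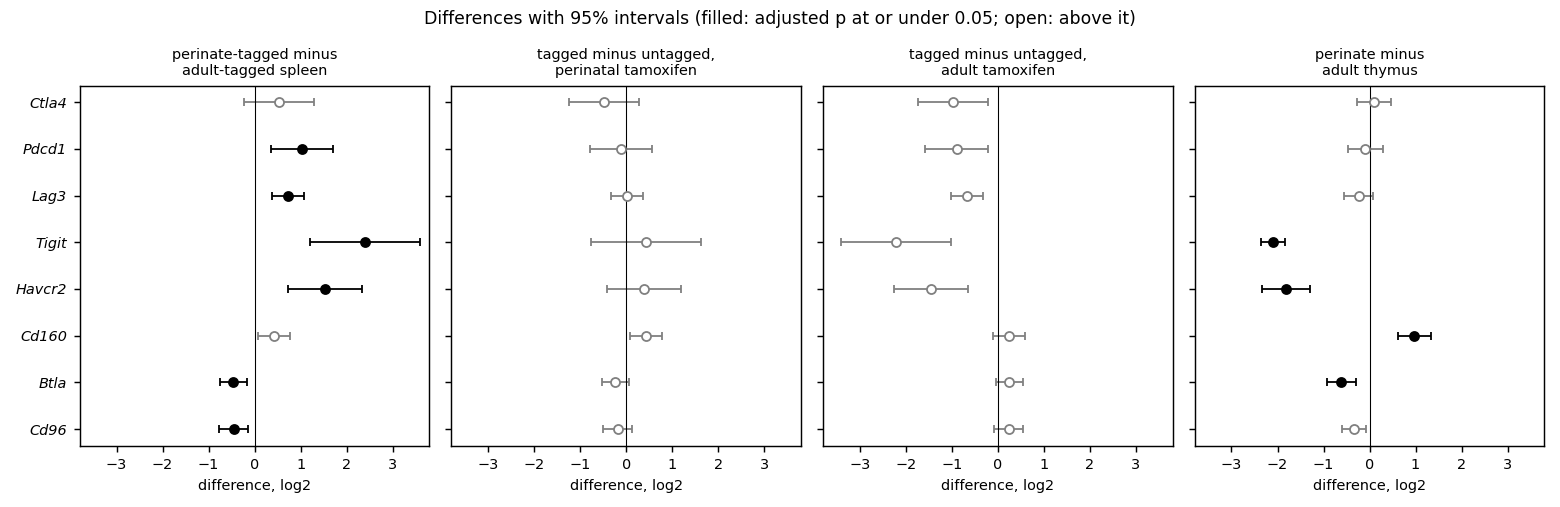
Log2 differences (horizontal axes) of the 8 receptors (vertical axis) in 4 comparisons, with 95% intervals. Filled points have an adjusted p at or under 0.05: 6 receptors in the tagged spleen comparison, 4 in the thymus, and 0 in either comparison of tagged with untagged cells.

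Untagged cells test whether the age at tamoxifen treatment, and with it the time since treatment, goes with a difference in cells that were not tagged. After perinatal against adult tamoxifen 0 of 8 untagged receptors passed, and 0% of 10350 genes (380 had an unadjusted p under 0.05), with every receptor at an adjusted p of 0.995. No receptor had groups that did not overlap, as 4.81% of genes did. The interval for Tigit was wide, -1.46 to 0.94 around -0.26, so that differences of the size seen in tagged cells were outside it but smaller ones were not. Deviations of the untagged arrays from their group means correlated by 0.63, 0.14 and 0.47 between arrays numbered 3, 4 and 5 alike. Arrays numbered 4 and 5 also correlated across numbers (0.27 and 0.30), so a pairing by number is not sure. In a paired fit of these 6 arrays, with the number as a replicate block, 0 receptors and 49 genes (0.495%) passed.

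The difference between the tagged and the untagged differences was 2.65 ± 0.79 for Tigit (adjusted p = 0.0736), 1.84 ± 0.54 for Havcr2 (adjusted p = 0.0674) and 0.70 ± 0.23 for Lag3 (adjusted p = 0.113). Of the receptors 0 of 8 passed, where 4.89% of genes did (444 higher and 62 lower, or 408 and 156 after quantile normalization), so a difference particular to tagged cells was not shown for them by this fit. Tigit and Havcr2 both passed without untagged replicate 3 of the adult treatment (3.34 and 2.37, where 6.55% of genes passed) and without untagged replicate 4 of the perinatal treatment (3.05 and 2.11, where 4.83% did). In no other fit with 1 array left out did a receptor pass. Both receptors read lowest of their group on the first of these arrays and highest on the second. These calls are thus not independent of the array left out.

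Much of the spread of the untagged groups came from the arrays numbered 3. After perinatal tamoxifen, Tigit on the array numbered 3 differed by -2.32 on the log2 scale from the mean of arrays 4 and 5, and after adult tamoxifen by -2.07. The same differences were -1.37 and -1.35 for Ctla4, -1.23 and -1.59 for Havcr2, -1.20 and -1.11 for Pdcd1 and -0.40 and -0.28 for Lag3, while they were 0.45 and 0.27 for Cd96. The same 2 arrays were low in Klrg1, an inhibitory receptor of differentiated T cells (7.10 and 6.89, against 8.59 to 9.03 on the other 4), in Icos (10.82 and 11.03, against 11.49 to 11.75) and in cell division genes (mean 8.01 and 8.20, against 8.61 to 8.81). Their Treg and T cell markers were not low (12.07 and 11.96, against 11.89 to 12.001).

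**Figure D3:**
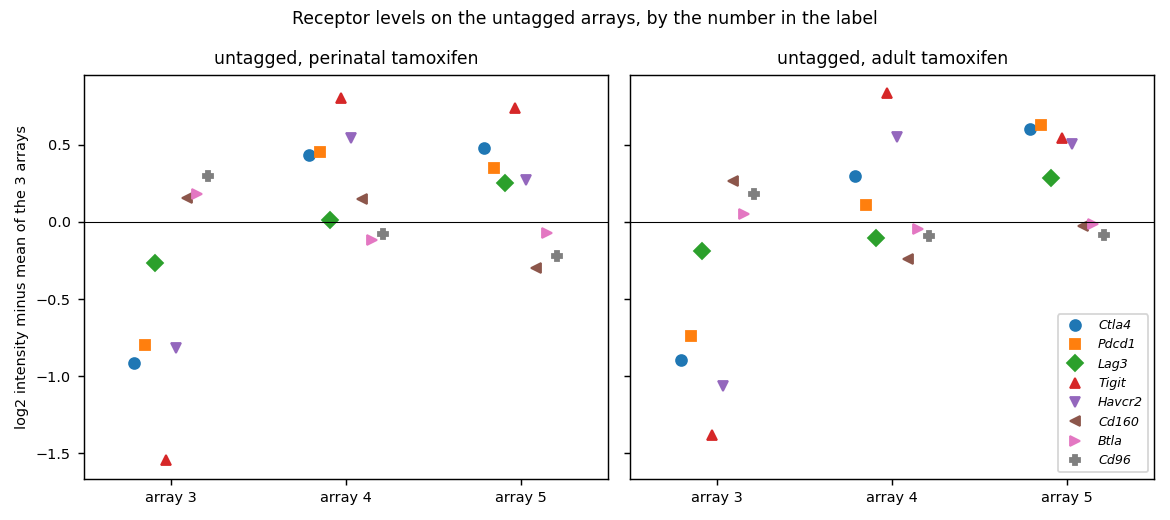
Log2 intensity of each receptor minus the mean of the 3 arrays of its group (vertical axis) on the untagged arrays numbered 3, 4 and 5 (horizontal axis), after perinatal tamoxifen (left) and adult tamoxifen (right). On both arrays numbered 3, Ctla4, Pdcd1, Lag3, Tigit and Havcr2 lie below 0 and Cd160, Btla and Cd96 above it.

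Tagged cells were also set against the untagged cells of the same treatment. After perinatal tamoxifen 0 of 8 receptors passed, where 7.34% of genes did (568 higher and 192 lower, or 520 and 372 after quantile normalization), and Cd160 was the only one whose groups did not overlap (0.43 ± 0.16, adjusted p = 0.126), as 32% of genes did. Ctla4 differed by -0.48 (95% interval -1.25 to 0.28) and Tigit by 0.43 (-0.77 to 1.62). With the number in the labels as a replicate block Ctla4 was lower in tagged cells (-0.63, adjusted p = 0.0367), and at the shared numbers 4 and 5 it differed by -0.77 and -0.86, although tagged and untagged arrays of these numbers did not deviate together from their group means (r = -0.11 and 0.001). After adult tamoxifen 0 of 8 passed and 0.271% of genes did, but 6 receptors had groups that did not overlap, where 17% of genes had (10.3% lower and 6.7% higher). Ctla4, Pdcd1, Lag3, Tigit and Havcr2 read lower in every tagged array than in every untagged one, by -0.98, -0.90, -0.68, -2.22 and -1.46, with adjusted p from 0.0925 for Lag3 to 0.221 for Ctla4, and Btla read higher by 0.25 (adjusted p = 0.371). Since Havcr2 was inside the background range in adult-tagged cells, its mean was at least 2.11-fold lower there. This bound makes no allowance for the spread between arrays, and the fitted difference did not pass (95% interval -2.27 to -0.64, adjusted p = 0.116, limma).

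The comparison after adult tamoxifen changed with the untagged array numbered 3. Without untagged replicate 3 of that treatment 5 receptors passed, all lower in adult-tagged cells, by -2.91 for Tigit (adjusted p = 0.00667), -1.99 for Havcr2 (0.00525), -1.42 for Ctla4 (0.0159), -1.27 for Pdcd1 (0.0182) and -0.77 for Lag3 (0.0216). These receptors read low on the array left out, so these p-values are not independent of that choice. Of all genes 7.46% passed without that array, against 0.271% with it. After perinatal tamoxifen 0 receptors passed when any 1 array was left out, and without untagged replicate 3 of that treatment Ctla4 differed by -0.94 (adjusted p = 0.0602).

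The thymus comparison sets the Foxp3-GFP+ Tregs of the perinate thymus against those of the adult thymus. Tigit, Havcr2 and Btla were lower in perinate thymus than in adult thymus, and Cd160 was higher. That is 3 of 8 receptors lower, where 5.84% of 10650 genes were, and 1 higher, where 18.5% were, 24.3% in either direction. Groups did not overlap in 5 receptors and in 53.6% of genes, and the median difference was -0.29 for the receptors and 0.17 for all genes. Over all genes 1967 were higher and 622 lower, against 1216 and 1062 after quantile normalization, which left 1 receptor higher and 4 lower. Centring each array on its median left 1 higher and 2 lower, without Btla (-0.50, adjusted p = 0.0635).

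Tigit was 4.26-fold lower in perinate thymus (-2.09 ± 0.11, adjusted p = 0.000114, limma), with means of 9.05 ± 0.10 in perinate thymus and 11.14 ± 0.08 in adult thymus (SD, n = 3 each). The mean of Havcr2 was at least 2.78-fold lower in perinate thymus, where it read inside the background range (fitted difference -1.81 ± 0.22, adjusted p = 0.0018, 95% interval -2.33 to -1.29). Cd160 was 1.96-fold higher (0.97 ± 0.16, adjusted p = 0.00544). Btla differed by -0.62 ± 0.14 (adjusted p = 0.0171), a call that was lost without any 1 of the perinate arrays or adult replicate 3 (adjusted p 0.0674 to 0.0854), while the calls of Tigit, Havcr2 and Cd160 stood without any 1 array. Cd96 (-0.34 ± 0.11, adjusted p = 0.058), Lag3 (-0.24 ± 0.14), Pdcd1 (-0.09 ± 0.17) and Ctla4 (0.10 ± 0.16, 95% interval -0.27 to 0.47) did not pass. Adult thymus replicate 2 had the narrowest spread of values of all arrays (interquartile range 2.08, against 2.675 to 3.06 on the other 5 thymus arrays), and without it Cd96, Lag3 and Pdcd1 passed as well, all lower, 7 receptors in all. Calls over all genes rose too, to 40.5% without that array from 24.3% with it (1428 lower, from 622).

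In the thymus the cell division mean was 9.48 to 9.65 in perinates and 7.69 to 8.03 in adults, higher in the perinate group as in the spleen, while Tigit and Havcr2 were lower. The myeloid and dendritic mean was 6.18 to 6.27 in perinate thymus and 6.32 to 6.66 in adult thymus, the NK mean 5.25 to 5.35 in perinates and 5.51 to 5.78 in adults, and the CD8 mean 9.31 to 9.43 in perinates and 9.71 to 9.87 in adults. These 3 list means were lower in perinates, as Tigit and Havcr2 were, and opposite to Cd160. Cd68, the only myeloid marker bright enough to be tested in the thymus, read higher in perinates (7.94 against 7.68 in adults). Eomes, the only NK marker tested there, differed by -0.20, and neither was called. The part of such cells in the receptor differences was not tested. Adgre1, Cd14 and Csf1r of the myeloid list, and all NK markers but Eomes, were in the background range in both thymus groups.

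The perinate minus adult differences of the tagged spleen cells and of the thymus ran in opposite directions for Tigit and Havcr2. In the spleen they compare ages at tamoxifen, and with them times since tamoxifen, in mice of 1 age. In the thymus they compare ages of the mice, so the contrasts are not of the same kind. The tagged spleen difference minus the thymus difference was 4.48 ± 0.71 for Tigit (adjusted p = 0.000605), 3.34 ± 0.52 for Havcr2 (adjusted p = 0.000464) and 0.96 ± 0.23 for Lag3 (adjusted p = 0.0141), over all 18 arrays and 10889 genes. These are 3 of 8 receptors, all in the positive direction, where 3.89% of genes were, 6.46% in either direction. Without any 1 array the difference ranged from 3.12 to 3.59 for Havcr2, and all 3 receptors stayed called. The call of Lag3 ended with arrays centred on their medians and with the number in the label as a replicate block (0.93, adjusted p = 0.0541, and 0.67, adjusted p = 0.0645). For Pdcd1 (1.13 ± 0.42, adjusted p = 0.118), Cd160 (-0.55 ± 0.24, adjusted p = 0.174), Ctla4 (0.44 ± 0.47), Btla (0.15 ± 0.19) and Cd96 (-0.12 ± 0.19) no difference between the tissues was shown. Btla was lower and Cd160 read higher in the perinate group of both tissues, though Cd160 did not pass in the spleen.

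Genes that act with the receptors were followed as lists. Of the receptors' ligands 6 of 10 tested (14 listed) were higher in perinate-tagged cells and 0 lower, namely Lgals3 (2.31 ± 0.29), Cd80 (1.38 ± 0.24), Pdcd1lg2 (1.02 ± 0.25), Lgals9 (0.54 ± 0.13), Nectin1 and Cd274, where 16% of all genes tested were higher, and the list's median was 0.49 against 0.12 for all genes. Without perinate-tagged replicate 2 the count was 6 again, 5 of them the same genes (without Nectin1 and with Cd86). In the thymus 1 of 9 was higher, Pvr (1.04 ± 0.28), and 1 lower, Cd80 (-0.80 ± 0.13), where 18.5% of all genes were higher and 5.84% lower. Cd80, the shared ligand of Ctla4 and Cd28, thus changed sign between the tissues as Tigit did, with a spleen minus thymus difference of 2.18 ± 0.31 (adjusted p = 0.000205), or 2.15 without perinate-tagged replicate 2. Tnfrsf14, the ligand of Btla and Cd160, did not pass in the spleen (-0.32 ± 0.21) or in the thymus (-0.35 ± 0.13).

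Among other inhibitory receptors 3 of 9 tested were higher in perinate-tagged cells, Klrg1 (3.86 ± 0.47, adjusted p = 5.73e-05), Cd200r1 (1.12 ± 0.19) and Cd101, and 0 lower, where 16% of all genes were higher and 3.5% lower. The list median was 0.14, near the 0.12 of all genes. In the thymus Klrg1 (-2.09 ± 0.31) and Cd200r1 (-1.15 ± 0.15) were lower in perinates, and Pecam1 was higher, of 8 tested, where 5.84% of all genes were lower and 18.5% higher. Of 11 activating counterparts 2 were higher in perinate-tagged cells, Icos (1.44 ± 0.20) and Tnfrsf9 (0.55 ± 0.14), a share near the 16% of all genes, with a median of 0.11. In the thymus Tnfrsf9 was higher (0.53 ± 0.14) and 4 of the 11 were lower in perinates, against the same shares of all genes. These were Icos (-1.54 ± 0.11), Slamf6 (-1.46 ± 0.11), Cd226 (-0.50 ± 0.11), the activating receptor that shares Pvr with Tigit, and Cd40lg. Klrg1, Cd200r1 and Icos thus had the same pair of signs as Tigit and Havcr2, and their spleen minus thymus differences were 5.95 ± 0.66, 2.26 ± 0.26 and 2.98 ± 0.26, all called. These calls in both lists stood without perinate-tagged replicate 2 (Klrg1 3.899 and Icos 1.48 in the tagged comparison).

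Of 21 genes of inhibitory signalling 4 were higher in perinate-tagged cells, Ubash3b (0.79 ± 0.13), Dok1 (0.72 ± 0.23), Lax1 and Dok2, and 0 lower, a share near the 19.5% of all genes. Without perinate-tagged replicate 2 these 4 calls stood and Sla was called higher as well. Ptpn11, the phosphatase SHP-2 that PD-1 recruits, differed by 0.43 ± 0.17 in the spleen (adjusted p = 0.0826) and was higher in perinate thymus (0.70 ± 0.17), and Ptpn6 passed in neither tissue. Of 13 trafficking and shedding genes 4 were higher in perinate-tagged cells, among them Adam17 (0.69 ± 0.14) and Adam10 (0.45 ± 0.13), the proteases that cleave Lag3, and Trat1, an adaptor of the T cell receptor that helps bring Ctla4 to the surface, was lower (-0.52 ± 0.14). Over all genes 16% were higher and 3.5% lower. Without perinate-tagged replicate 2 these counts were the same, with Rab5a called in place of Rab11a. In the thymus 1 of the 13 was higher and 0 were lower, where 18.5% of all genes were higher and 5.84% lower.

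Of 19 transcription factors known to act on these receptors or on activated T cells, 8 were higher in perinate-tagged cells, with Tox2 (1.84 ± 0.36), Tbx21 (1.47 ± 0.17), Prdm1 (1.23 ± 0.41, adjusted p = 0.0494) and Nr4a2 (1.06 ± 0.21) the largest, and Bach2, a repressor of effector programmes, was the single one lower (-0.97 ± 0.22), where 16% of all genes were higher and 3.5% lower. Without perinate-tagged replicate 2 Prdm1 lost its call (1.22, adjusted p = 0.0881) and the other 8 calls stood. In the thymus 5 were higher and 5 lower in perinates, where 18.5% of genes were higher and 5.84% lower, and Prdm1 (-2.28 ± 0.13), Maf (-2.08 ± 0.23) and Id2 (-1.76 ± 0.20) were the largest of the lower ones and Nr4a1 (1.29 ± 0.26) of the higher. The difference between the tissues was called for 7 of the 19, where 6.46% of genes were, 5 of them positive (6 without perinate-tagged replicate 2, with Foxo1 lost), with Prdm1 (3.51 ± 0.53), Maf (3.04 ± 0.25), Tox2 (2.78 ± 0.47) and Tbx21 (2.36 ± 0.24) the largest.

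**Figure D4:**
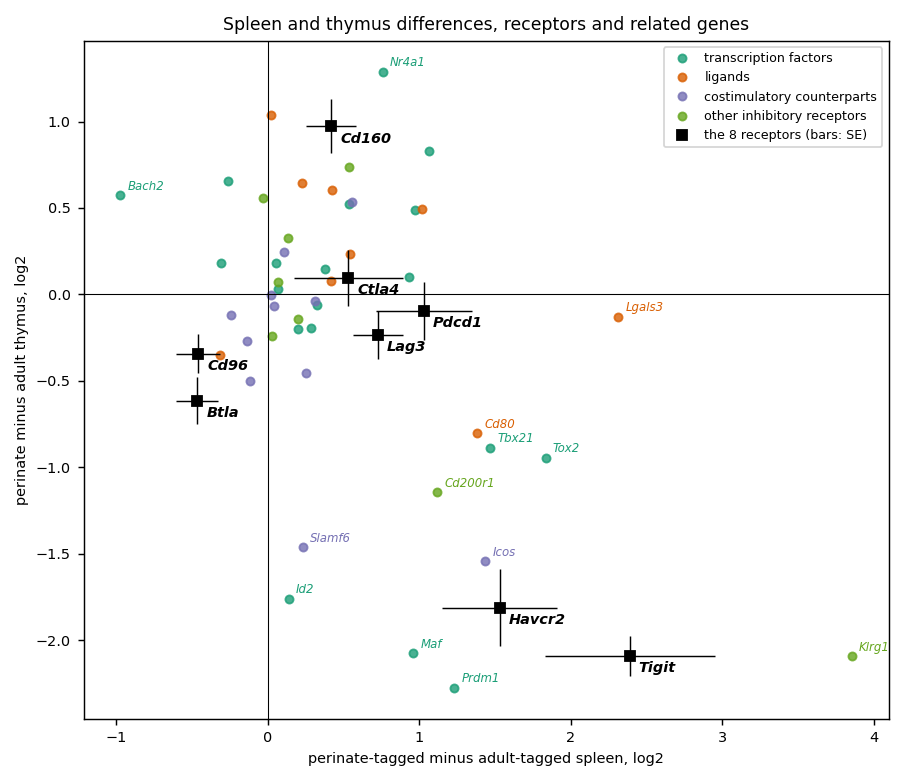
Log2 difference of perinate-tagged minus adult-tagged spleen (horizontal axis) and of perinate minus adult thymus (vertical axis) for the 8 receptors (squares, bars are SE) and for the tested genes of 4 lists (circles). Tigit and Havcr2 lie at the lower right with Klrg1, Icos, Prdm1, Maf, Tox2, Tbx21 and Cd200r1, while Btla and Cd96 are below 0 on both axes and Cd160 is above 0 on both.

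The genes whose log2 levels followed each receptor most closely over the 18 arrays were ranked by Pearson's r among 10351 genes. The arrays share groups and, in part, numbers, so these r describe the arrays and carry no test. Tigit was closest to Il10, a cytokine of activated Tregs (r = 0.97), and Havcr2 to Icos (0.92). Ctla4 was closest to Tnfaip3 (0.97), Pdcd1 to Plscr1 (0.95), Lag3 to Tnfaip8 (0.95), Cd160 to Pole2 (0.91), Btla to Resf1 (0.98) and Cd96 to Exoc6b (0.91). Among the receptors themselves Tigit and Havcr2 had an r of 0.94 and Ctla4 and Pdcd1 one of 0.92. Within groups, from deviations of each array from its group mean, these were 0.88 and 0.99. Without the untagged arrays numbered 3 the r within groups was 0.34 for Tigit and Havcr2 and 0.93 for Ctla4 and Pdcd1. Without perinate-tagged replicate 2 the r with each named gene was 0.91 to 0.98, and Il10, Icos and Pole2 were no longer first in their ranking.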

How the data were processed

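The authors deposited linear intensities of probe sets, which come from Affymetrix Power Tools with RMA according to the notes (versions not stated, per the submitters' processing notes). Of 24922 probe sets, 21425 carry 1 symbol in the platform annotation, 1399 several and 2098 none. Where a gene had several, the brightest was kept, which gave 19752 genes. Analysis used the log2 of the deposited intensities, with no pseudocount and no further scaling. Genes were tested if any group of the fit averaged at or above the overall median of the table, 7.05 on the log2 scale, and all 8 receptors were tested in each fit. That left 10350 genes for the 12 spleen arrays, 10650 for the 6 thymus arrays and 10889 for all 18. The test was limma's (version 3.58.1, R 4.3.3) with eBayes and a coefficient for each group, two-sided, with Benjamini-Hochberg adjustment over all genes of a fit and a threshold of 0.05. An exact permutation test of 3 arrays against 3 cannot go below 0.1, so none was run. Depth does not apply to arrays, and precision is set by their number.

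The receptors and all lists were chosen with earlier results of these data known. Genes of the lists were named when past the threshold, up to 4 per list and comparison by size, and others only to complete a count, or with a role beside a receptor. A gene whose mean lay in the range read by transcripts absent by sex has only a bound, the brighter group's mean over the upper end of that range. It is a bound on the means and makes no allowance for the spread between arrays. Promoter windows, gene positions and symbols are RefSeq's for GRCm38.p6, and the build behind the deposited values is not given in the sources used here. The code was tested on simulated data. No pair of the 18 arrays had identical values. The untagged arrays numbered 3, 4 and 5 were taken as paired, from the data and not the labels, since the residuals of arrays with one number correlated by 0.63, 0.14 and 0.47, each over 0.1, although arrays numbered 4 and 5 also correlated across numbers (0.27 and 0.30). The thymus arrays were not paired (-0.05, 0.06 and 0.12). Alternatives covered array weights, the variance prior, which arrays entered a fit, scaling, the filter, probe sets, a replicate block, the interquartile range and leaving out each array. A block over the untagged arrays alone and leaving out both arrays numbered 3 were added after seeing the data. The chimera arm of the study is not analysed here.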

Additional observations from a re-analysis of the deposited data

Results flagged for a closer look

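The perinate minus adult difference was not the same in tagged spleen cells and in thymus cells for 3 receptors, by a test of the difference itself over all 18 arrays (limma, Benjamini-Hochberg over 10889 genes). For Tigit the spleen difference minus the thymus difference was 4.48 ± 0.71 (adjusted p = 0.000605), higher in perinate-tagged spleen cells and lower in perinate thymus cells in every array. For Havcr2 it was 3.34 ± 0.52 (adjusted p = 0.000464), with perinate thymus and adult-tagged cells in the background range. For Lag3 it was 0.96 ± 0.23 (adjusted p = 0.0141), with a called difference in the spleen and none called in the thymus. The spleen difference is one of age at tamoxifen and of time since tamoxifen, which cannot be told apart, and the thymus difference one of age. Tissue, sex, sorter and age of the mice differ together between the 2 tissues and cannot be told apart.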

How the results depend on the processing

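Of 1049 receptor differences recomputed under an alternative, 911 kept their direction and their side of the threshold, 41 lost a call, 49 gained one and 48 changed sign. Of those 48, 0 were called as reported and 0 passed under the alternative. Tigit kept its thymus call in 16 of 16 alternatives and its spleen minus thymus call in 21 of 21. Havcr2 kept these in 15 of 15 and 20 of 20, and Cd160 its thymus call in 15 of 15. In the thymus Havcr2 and Cd160 reached the filter only through the group where they were higher. The setting that asked for the filter in every group removed them, and is not among their alternatives. It also removed Havcr2 and Lag3 from the tagged comparison and from the spleen minus thymus difference. In the tagged comparison Tigit kept its call in 15 of 18 (lost with a trended prior, adjusted p = 0.0536), Havcr2 and Lag3 in 15 of 17, Btla in 10, Pdcd1 in 9 and Cd96 in 8 of 18. The cause of each loss was not tested.

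The number of receptors called in the tagged comparison was 6. It was 8 with array weights, with only the arrays of the comparison and without the untagged arrays numbered 3, 4 with median centring, with no filter, with the stricter filter and with the trended prior, 0 with the replicate block, which is not a paired analysis there because these groups share only the number 2, 0 with the interquartile range as a covariate, and 3 to 5 when 1 array was left out. The stricter filter, which a gene had to reach in every group, removed Havcr2 and Lag3 there and left 6 receptors tested. Of all genes 19.5% were called, and 57%, 33.2% and 27% in the settings with 8 receptors, in the order named. The shares were 21%, 8.6%, 17.6% and 19.8% in the settings with 4 receptors, 6.33% with the block and 3.63% with the interquartile range. For the difference between tagged and untagged differences the count was 0, and 2 with array weights, with all 18 arrays in 1 fit and without the untagged arrays numbered 3 (0 to 2 with 1 array left out). The share of all genes was 4.89%, and 10.4%, 4.78% and 6.06% in these settings. For tagged against untagged cells after perinatal tamoxifen the count was 0, and 2 with array weights, 1 (Ctla4, -0.63) with the replicate block and 3 without the arrays numbered 3 (0 with any 1 array left out). The share of all genes was 7.34%, and 37.4%, 10.5% and 15.4% in these settings. After adult tamoxifen the count was 0, and 1 with array weights, 2 with only the arrays of the comparison, 1 with all 18 arrays and 5 without the arrays numbered 3 (0 to 5 with 1 left out). The share of all genes was 0.271%, and 0.686%, 1.19%, 0.909% and 13.9% in these settings. The arrays numbered 3 were set aside for their receptor levels, so calls without them are not independent of that choice. In the thymus the count was 4, and 2 when a gene had to reach the filter in every group, which removes Havcr2 and Cd160, and 7 with the interquartile range (3 to 7 with 1 left out). The share of all genes was 24.3%, and 21.1% and 23.7% in these settings (6.64% to 40.5% with 1 left out). For the spleen minus thymus difference the count was 3, and 1 with the stricter filter, which removes Havcr2, Lag3 and Cd160, and 7 with array weights (3 with any 1 left out). The share of all genes was 6.46%, and 5.07% and 46.7% in these settings. For the untagged comparison the count of receptors was 0 under every alternative run, also in the paired fit. The estimates of array weights did not all converge. The replicate block changed no call of a receptor in the thymus.

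Signs turned as follows, none of them called. With the replicate block Ctla4 was -0.22 in the tagged comparison, -0.26 for the difference between tagged and untagged differences and -0.31 for spleen minus thymus, and Tigit was -0.019 for perinatal tagged minus untagged. In the untagged comparison Ctla4 was -0.0244, Lag3 -0.0204 and Btla -0.05 with quantile normalization, Tigit 0.43, Havcr2 0.0473 and Btla -0.0391 with array weights, Ctla4 -0.17 and Lag3 -0.12 with the interquartile range, and Btla -0.0391 without the arrays numbered 3. For perinatal tagged minus untagged, Lag3 was -0.0261 with quantile normalization, -0.0725 with array weights, -0.0526 with the interquartile range and -0.113 without the arrays numbered 3. There Tigit was -0.25 with array weights and -0.347 without those arrays, and Havcr2 was -0.0109 and -0.0232. In the thymus Ctla4 was -0.0957 with quantile normalization, -0.0238 with array weights and -0.29 with the interquartile range, and Pdcd1 was 0.0243 with median centring. With 1 array left out, differences in the untagged comparison ranged from -0.408 to 0.498 for Ctla4, -0.122 to 0.649 for Pdcd1, -0.0972 to 0.174 for Lag3, -0.949 to 0.515 for Tigit, -0.841 to 0.0987 for Havcr2, -0.0664 to 0.083 for Btla and -0.187 to 0.0727 for Cd96. For perinatal tagged minus untagged they ranged from -0.113 to 0.149 for Lag3, -0.347 to 0.829 for Tigit, -0.0232 to 0.657 for Havcr2 and -0.516 to 0.111 for Pdcd1, and in the thymus from -0.0797 to 0.203 for Ctla4 and -0.279 to 0.0306 for Pdcd1.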
